A study of Mus musculus with 18 samples.

Results

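This section describes 33 genes of glycolysis, pyruvate use, the pentose phosphate pathway and the response to low oxygen in mouse regulatory T cells. They are the genes with at least 10 counts in at least 3 libraries out of 34 listed, among 23420 genes in the deposited count table. Rpia, which makes ribose 5-phosphate from ribulose 5-phosphate, is the listed gene left out, because only 1 library held 10 counts of it. The cells were sorted, lysed and profiled by RNA-seq as bulk libraries. The mice under study were FCre x C1 fl/fl, in which both copies of the gene written C1 are flanked by recombination sites, and FCre x C1 fl/+, in which 1 copy is. The flanked part is not given in the labels. The controls were FCre x C1 +/+, so all 3 genotypes carry the allele written FCre, whose promoter the labels do not spell out. Each genotype was sorted as effector (activated) and resting cells, in 3 libraries that carry batch numbers 1 to 3, which gives 6 groups and 18 libraries. The labels state neither age, sex or sorting gates nor whether libraries came from separate animals, so each p-value measures the spread between these libraries.

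Glycolysis splits glucose into pyruvate and yields ATP in the cytosol, and lactate dehydrogenase turns the pyruvate into lactate. Pyruvate can instead enter mitochondria through the pyruvate dehydrogenase complex, which pyruvate dehydrogenase kinases switch off by phosphorylation. The pentose phosphate pathway branches off at glucose 6-phosphate and makes NADPH and the ribose of nucleotides. Hif1a encodes the oxygen-regulated transcription factor that is known to raise many glycolytic genes in T cells, where signals from the antigen receptor also raise it.

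The shallowest library, fl/fl effector replicate 3, held 1658073 expected counts and the deepest 5756903, and the median library held 3154386.5. The 33 genes held 0.595 to 0.853% of each total. Treg markers were present in every library: 8 genes that include Foxp3 and Il2ra summed to 2649 to 4258 CPM, and none was at 0. Sums for other cells were 9.64 to 96.3 CPM for 8 B cell genes, 16.2 to 48.0 CPM for 6 CD8 T or NK cell genes, 63.6 to 104 CPM for 7 myeloid genes in the table, 2.15 to 8.55 CPM for 6 dendritic cell genes and 0 to 1.69 CPM for 4 red cell genes in the table. Pax5 and Ebf1 were at 0 in all +/+ effector libraries, Cd14 was at 0 in every library of 5 groups, and Ncr1 was at 0 in all +/+ libraries. Hba-a2 was at 0 in all 18 libraries. A list of 20 proliferation genes moved with state and genotype. It summed to 1119 to 1435 CPM in fl/fl, 832 to 1093 CPM in fl/+ and 610.5 to 1078 CPM in +/+ effector cells, against 369 to 513 CPM in the 9 resting libraries.

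Levels between genes are compared in FPKM, which is per transcript length. Gapdh was the highest of the 33, with a mean of 1260 FPKM over the 18 libraries, and Hk2 the lowest, at 0.740 FPKM. Ldha (531 FPKM), Eno1 (363 FPKM), Pkm (340 FPKM) and Aldoa (317 FPKM) followed Gapdh. Hk1, the main hexokinase gene here, was at 26.4 FPKM. Among pentose phosphate genes Taldo1 led with 154 FPKM and G6pdx, which encodes the enzyme that commits glucose 6-phosphate to the pathway, was at 17.3 FPKM. Hif1a averaged 53.2 FPKM, P4ha1 21.5 FPKM, Bnip3 4.94 FPKM and Egln3 2.26 FPKM. Neighbours in this order, such as Pdk1 (23.4), P4ha1 (21.5), Eno3 (21.2), Pdk3 (20.3) and Pfkl (20.1 FPKM), overlapped over the libraries. Taldo1 varied least, with a highest library 1.25 times the lowest, and Hk2 varied most, between 0.06 and 2.35 FPKM.

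**Figure D1:**
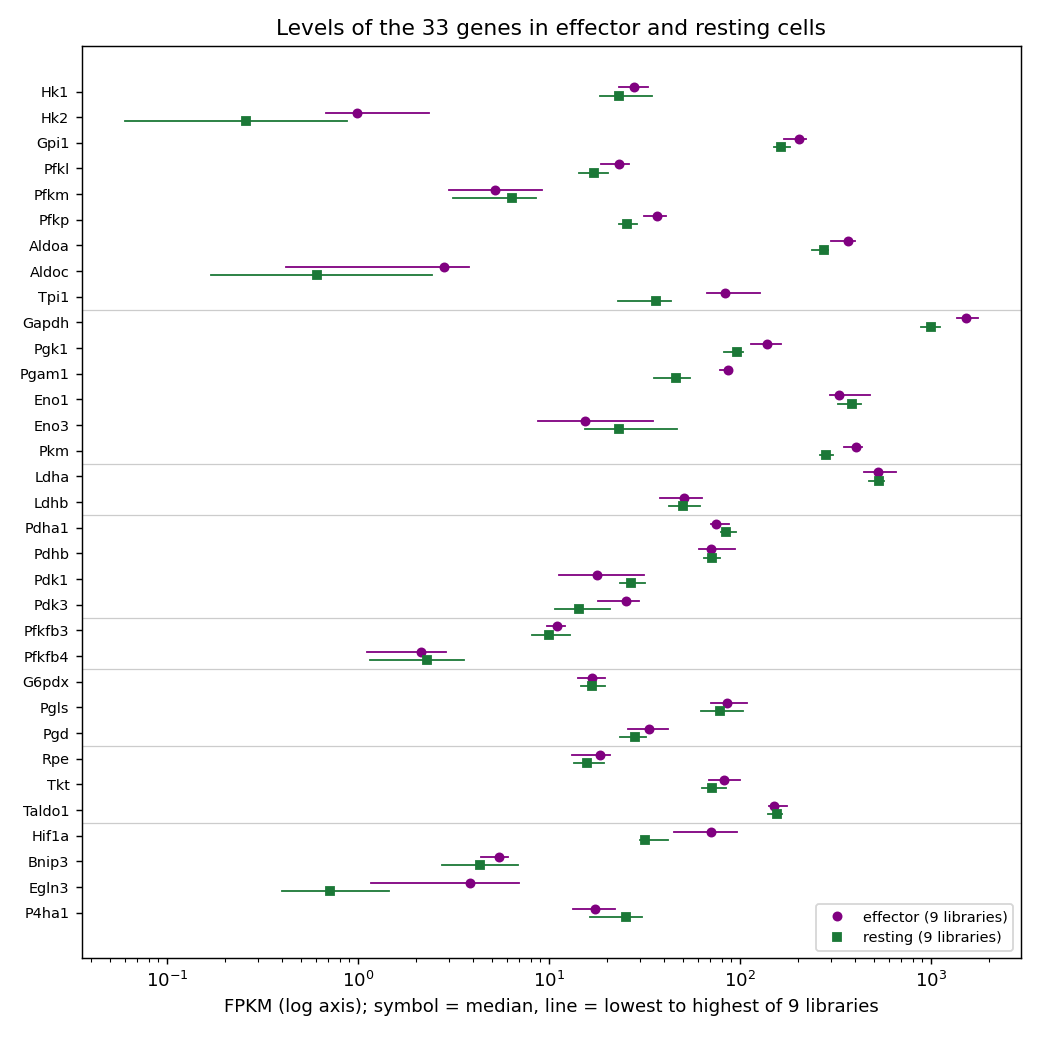
Level of each of the 33 genes in FPKM on a log axis, with the median and the range of 9 effector libraries (circles) above those of 9 resting libraries (squares); grey lines part the roles. The effector and resting ranges of Pfkp, Aldoa, Tpi1, Gapdh, Pgk1, Pgam1, Pkm and Hif1a do not overlap, and those of the pentose phosphate genes do. How many of all genes have ranges that part in this way was not counted.

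The promoters of 5 genes are shown here because their genes carry the comparisons below: Tpi1, Pgk1 and Pgam1 moved with the effector state, and Ldha and Pdk1 differed between genotypes in effector cells. Each window runs from 250 bases before to 50 after the RefSeq start of transcription in GRCm38.p6 and is written 5′ to 3′ on the gene's own strand. Capitals mark ACGTG, the core of the hypoxia response element, or its reverse complement CACGT. The E-box CACGTG overlaps this core, and a CACGTG counts as a match on both strands.

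Tpi1, chr6:124814109-124814408, minus strand: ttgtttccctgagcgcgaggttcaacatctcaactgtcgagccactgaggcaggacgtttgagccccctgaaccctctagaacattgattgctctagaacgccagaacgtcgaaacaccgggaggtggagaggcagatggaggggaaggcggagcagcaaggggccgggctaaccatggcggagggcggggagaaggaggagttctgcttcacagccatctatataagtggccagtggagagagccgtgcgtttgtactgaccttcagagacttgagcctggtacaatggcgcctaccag

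Pgk1, chrX:106186850-106187149, plus strand: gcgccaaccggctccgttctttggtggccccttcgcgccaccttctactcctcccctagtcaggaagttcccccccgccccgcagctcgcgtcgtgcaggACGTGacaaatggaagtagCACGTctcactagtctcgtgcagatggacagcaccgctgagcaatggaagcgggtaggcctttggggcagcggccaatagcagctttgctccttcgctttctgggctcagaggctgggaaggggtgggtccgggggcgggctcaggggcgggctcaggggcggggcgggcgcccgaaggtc

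Pgam1, chr19:41911621-41911920, plus strand: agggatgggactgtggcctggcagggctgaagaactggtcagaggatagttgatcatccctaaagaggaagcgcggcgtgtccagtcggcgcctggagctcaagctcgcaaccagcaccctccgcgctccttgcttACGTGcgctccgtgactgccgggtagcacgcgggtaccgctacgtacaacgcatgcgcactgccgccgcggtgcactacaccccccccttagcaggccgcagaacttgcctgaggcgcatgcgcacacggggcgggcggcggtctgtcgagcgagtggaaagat

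Ldha, chr7:46845554-46845853, plus strand: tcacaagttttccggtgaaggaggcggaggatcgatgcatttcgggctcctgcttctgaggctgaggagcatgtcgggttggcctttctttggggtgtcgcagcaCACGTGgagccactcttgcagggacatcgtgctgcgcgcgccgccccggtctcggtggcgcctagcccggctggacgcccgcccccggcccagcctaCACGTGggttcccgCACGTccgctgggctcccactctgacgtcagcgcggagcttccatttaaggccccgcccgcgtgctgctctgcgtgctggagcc

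Pdk1, chr2:71872974-71873273, plus strand: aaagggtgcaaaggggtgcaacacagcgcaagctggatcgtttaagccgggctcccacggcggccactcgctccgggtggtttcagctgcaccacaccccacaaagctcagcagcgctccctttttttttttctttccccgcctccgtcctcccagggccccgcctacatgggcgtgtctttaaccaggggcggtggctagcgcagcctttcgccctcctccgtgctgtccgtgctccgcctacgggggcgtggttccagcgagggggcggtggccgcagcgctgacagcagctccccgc

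Ldha had 5 matches, which lie in 2 CACGTG and 1 single site, Pgk1 had 2 and Pgam1 had 1. The Tpi1 and Pdk1 windows held no ACGTG, and the Ldha and Pdk1 entries have 2 windows in the table, of which the first was used. Over the 33 genes, 15 windows (45.5%) held ACGTG on either strand, against 26.7% of 7975 windows of tested genes and 19.7% of all 27025 windows. For GCGTG, the other form of the core, the shares were 63.6%, 53.0% and 32.5%, and for CACGTG 12.1%, 10.7% and 7.24%. ACGTG was in 4 of the 8 promoters of genes that were higher in effector cells of all 3 genotypes and in 11 of the other 25. These are matches of letters in short windows and say nothing of binding.

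The first question is how the 33 genes differ between effector and resting cells. The test called 8 genes higher in effector cells of all 3 genotypes: the glycolytic enzymes Pfkp, Aldoa, Tpi1, Gapdh, Pgam1 and Pkm, and the hypoxia genes Hif1a and Egln3. How many of all genes were higher in all 3 genotypes was not counted, so this 8 has no background share beside it. Egln3 reached 10 counts in 8 effector libraries and 1 resting library, so it passed the count rule only through the state in which it is high. In fl/fl 9 genes were called higher and 0 lower, where 5.01% of all 10630 genes tested were called higher and 1.33% lower. In fl/+ 11 were higher and 2 lower, against 9.72% and 6.58% of all genes. In +/+ 9 were higher and 3 lower, against 9.49% and 6.50%. Among the 29 genes with 10 counts in all 18 libraries, 8 were higher and 0 lower in fl/fl, 9 and 2 in fl/+, and 8 and 3 in +/+. A gene is called here at an adjusted p under 0.05 in edgeR's quasi-likelihood test with Benjamini-Hochberg adjustment over all genes tested. The median log2 fold change of the 33 genes was 0.13 in fl/fl, 0.13 in fl/+ and 0.09 in +/+, and that of all genes was -0.01 in each. On the log2(FPKM + 1) scale the split in +/+ was 11 higher and 1 lower, where 16.8% of all genes were called in either direction. Of those calls over all genes 74.3% were higher, against 59.4% in the count fit, so the scale moved all genes the same way. With genotype and number as a replicate block the split in fl/+ was 12 higher and 5 lower, where 21.3% of all genes were called in either direction. The 3 comparisons share no library, but 1 fit to all 18 libraries gave them the same estimate of the spread. With only the fl/fl groups in the fit 5 of the 33 genes were called, where 3.52% of all genes were called. The fl/fl count fell to 4 without fl/fl effector replicate 1 and to 5 without fl/fl resting replicate 2 or 3, in fits that called 2.48%, 2.93% and 2.72% of all genes in either direction, against 6.34% in the full fit. Proliferation genes moved with all of them, with 20 of 20 higher in fl/fl, 19 in fl/+ and 15 in +/+, and their part in the result was not tested. In bulk libraries a larger share of cells with a transcript and more transcript per cell cannot be told apart.

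**Figure D2:**
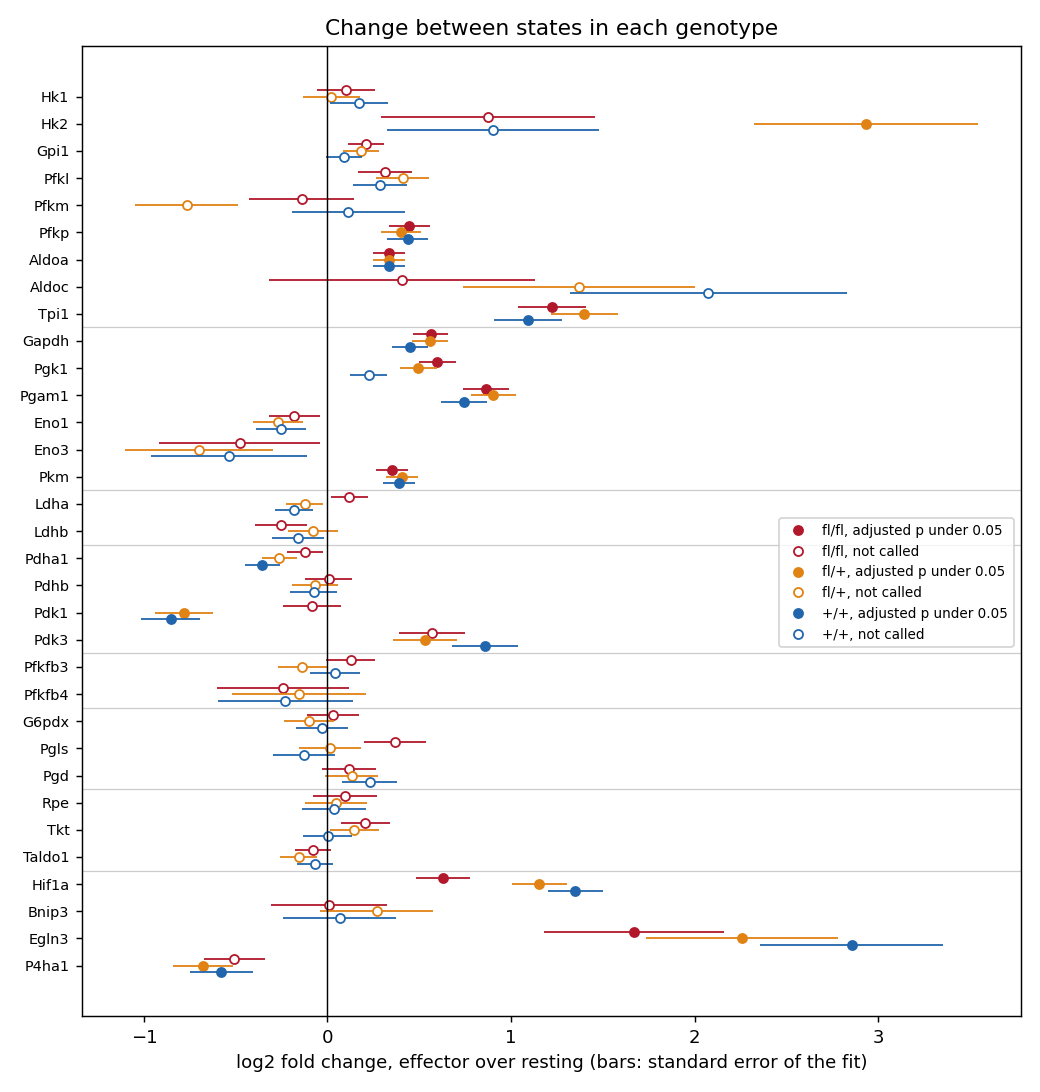
Fitted log2 fold change of effector over resting cells, with its standard error, for each gene in fl/fl (red), fl/+ (orange) and +/+ (blue); filled points have an adjusted p under 0.05. Tpi1, Pgam1, Hif1a and Egln3 lie to the right in all 3 genotypes, Pdk1 lies near 0 in fl/fl (-0.08) and at -0.78 and -0.85 in fl/+ and +/+.

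In upper glycolysis, the steps from glucose to triose phosphate, 3 of 9 genes were higher in fl/fl, 4 in fl/+ and 3 in +/+, and none was lower. The 9 include Hk2 and Aldoc, which passed the count rule only through effector cells, and Hk2 is among the fl/+ calls. Apart from Hk2 the fl/+ calls were Pfkp, Aldoa and Tpi1. Of all genes, 5.01% were called higher and 1.33% lower in fl/fl, 9.72% and 6.58% in fl/+, and 9.49% and 6.50% in +/+. Tpi1, which interconverts the 2 triose phosphates, was among the genes higher in all 3 genotypes. It was at 126, 101 and 152 CPM in fl/fl, 130.3, 125 and 184 CPM in fl/+ and 112, 116 and 121 CPM in +/+ effector cells. Resting values were 54.3, 36.8 and 69.4 CPM in fl/fl, 53.0, 55.1 and 59.2 CPM in fl/+ and 55.8, 52.3 and 55.7 CPM in +/+ cells. Every effector library was above every resting one. Its log2 fold change was 1.22 (SE 0.18, adjusted p = 0.000526) in fl/fl, 1.40 (SE 0.18, adjusted p = 4.09e-05) in fl/+ and 1.09 (SE 0.19, adjusted p = 0.000386) in +/+, or 2.33-fold, 2.64-fold and 2.13-fold. Pfkp, the platelet type of phosphofructokinase, was at 151, 122 and 143 CPM in fl/fl, 147, 133 and 132 CPM in fl/+ and 146, 154 and 127 CPM in +/+ effector cells. In resting cells Pfkp was at 108, 102 and 95.9 CPM in fl/fl, 103, 98.8 and 110.3 CPM in fl/+ and 102, 119 and 94.0 CPM in +/+. These 9 and 9 libraries did not overlap either. On the log2 scale Pfkp changed by 0.45 (SE 0.11, adjusted p = 0.0181) in fl/fl, 0.40 (SE 0.11, adjusted p = 0.0144) in fl/+ and 0.44 (SE 0.11, adjusted p = 0.00894) in +/+. Aldoa, which splits fructose 1,6-bisphosphate, was at 492, 424 and 527 CPM in fl/fl, 500.3, 474 and 551 CPM in fl/+ and 522, 518 and 503 CPM in +/+ effector cells. Its resting libraries held 392, 361 and 389.6 CPM in fl/fl, 406, 386 and 418 CPM in fl/+ and 423, 395 and 405 CPM in +/+. All effector libraries were again above all resting ones, though the gap was narrow, 424 against 423 CPM. Aldoa had log2 fold changes of 0.33 (SE 0.09, adjusted p = 0.0234) in fl/fl, 0.34 (SE 0.09, adjusted p = 0.00967) in fl/+ and 0.34 (SE 0.09, adjusted p = 0.0101) in +/+.

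Hk1 and Hk2 both make the hexokinase that traps glucose in the cell. Hk1 was at 118, 93.3 and 105 CPM in fl/fl, 128, 109 and 114 CPM in fl/+ and 114, 103 and 109.8 CPM in +/+ effector cells. In resting cells it was at 116, 79.0 and 100.4 CPM in fl/fl, 103, 98.8 and 145 CPM in fl/+ and 80.2, 100.5 and 111 CPM in +/+. The states overlapped, and the log2 fold change was 0.10 (SE 0.16, adjusted p = 0.793) in fl/fl, 0.02 (SE 0.15, adjusted p = 0.951) in fl/+ and 0.17 (SE 0.16, adjusted p = 0.519) in +/+. Hk2, the form known to be induced in activated T cells, was low: it was at 4.24, 3.69 and 4.84 CPM in fl/fl, 5.79, 7.77 and 12.3 CPM in fl/+ and 5.07, 3.70 and 5.54 CPM in +/+ effector cells. Its resting levels were 4.77, 0.361 and 1.48 CPM in fl/fl, 0.862, 1.57 and 0.939 CPM in fl/+ and 1.01, 4.05 and 3.16 CPM in +/+. The fl/+ groups were apart, and the fl/fl and +/+ groups overlapped. For Hk2 the log2 fold change was 0.88 (SE 0.58, adjusted p = 0.452) in fl/fl, 2.93 (SE 0.61, adjusted p = 0.00217) in fl/+ and 0.90 (SE 0.58, adjusted p = 0.323) in +/+. Hk2 reached 10 counts in 7 effector and 2 resting libraries, Aldoc in 6 and 2, and Egln3 in 8 and 1, so these 3 passed the count rule only through effector cells, and their tests between states draw on that choice. Aldoc, a minor aldolase, had log2 fold changes of 0.41 (SE 0.72, adjusted p = 0.826) in fl/fl, 1.37 (SE 0.63, adjusted p = 0.154) in fl/+ and 2.08 (SE 0.76, adjusted p = 0.0682) in +/+. Pfkl, the liver type of phosphofructokinase, was at 77.5, 68.1 and 94.9 CPM in fl/fl, 90.4, 77.2 and 88.0 CPM in fl/+ and 87.5, 66.6 and 81.3 CPM in +/+ effector cells. Resting libraries had 58.5, 54.5 and 78.2 CPM in fl/fl, 59.5, 68.5 and 65.3 CPM in fl/+ and 69.0, 62.0 and 62.8 CPM in +/+ of Pfkl. The groups were apart in fl/+ alone, with log2 fold changes of 0.31 (SE 0.15, adjusted p = 0.246) in fl/fl, 0.41 (SE 0.14, adjusted p = 0.0574) in fl/+ and 0.29 (SE 0.15, adjusted p = 0.203) in +/+. With the batch number as a replicate block Pfkl passed in fl/+ (adjusted p = 0.0292). Pfkm, the muscle type, had log2 fold changes of -0.14 (SE 0.29, adjusted p = 0.850) in fl/fl, -0.77 (SE 0.28, adjusted p = 0.0686) in fl/+ and 0.11 (SE 0.31, adjusted p = 0.856) in +/+, and in fl/+ it passed with that block (-0.78, adjusted p = 0.0283) and without fl/+ effector replicate 1 (-1.12, adjusted p = 0.0186). In most other alternatives Pfkm did not pass in fl/+. Gpi1, which makes fructose 6-phosphate, had log2 fold changes of 0.21 in fl/fl, 0.18 in fl/+ and 0.09 in +/+, none called.

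The Pfkp call was lost in fl/fl without effector replicate 1 or resting replicate 2 or 3 (adjusted p = 0.0580 to 0.125) and with only the fl/fl groups in the fit (0.0634). It was also lost in fl/+ without effector replicate 1 or resting replicate 1 or 2 (0.0513 to 0.0627), and in +/+ without resting replicate 3 (0.0531). The Aldoa call was lost in fl/fl without effector replicate 1 or 3 or resting replicate 2 or 3 (adjusted p = 0.0635 to 0.108) and in fl/+ without effector replicate 3 (0.0704). With only the fl/fl groups in the fit the fl/fl call of Aldoa was lost as well (0.109). Tpi1 kept its 3 calls in every alternative tried.

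In lower glycolysis, the steps that harvest ATP, 4 of 6 genes were higher in fl/fl, 4 in fl/+ and 3 in +/+, and none was lower, where 5.01%, 9.72% and 9.49% of all genes were higher and 1.33%, 6.58% and 6.50% lower in the same genotypes. Gapdh, which oxidises glyceraldehyde 3-phosphate, was at 1616, 1556 and 1934 CPM in fl/fl, 1665, 1588 and 1921 CPM in fl/+ and 1510, 1641 and 1694 CPM in +/+ effector cells. In resting cells Gapdh was at 1175, 1073 and 1208 CPM in fl/fl, 1100, 1125 and 1290 CPM in fl/+ and 1194, 1213 and 1139 CPM in +/+. No effector library was as low as a resting one. Its log2 fold change was 0.56 (SE 0.10, adjusted p = 0.00155) in fl/fl, 0.56 (SE 0.10, adjusted p = 0.000450) in fl/+ and 0.45 (SE 0.10, adjusted p = 0.00264) in +/+. Pgam1, phosphoglycerate mutase, was at 141, 153 and 152 CPM in fl/fl, 141, 137 and 144 CPM in fl/+ and 138, 152 and 149.7 CPM in +/+ effector cells. Resting libraries held 93.9, 85.2 and 65.8 CPM in fl/fl, 64.0, 81.1 and 82.2 CPM in fl/+ and 91.6, 93.2 and 77.0 CPM in +/+ of Pgam1. The effector libraries were close to each other and all above the resting ones. Log2 fold changes of Pgam1 were 0.86 (SE 0.12, adjusted p = 0.000335) in fl/fl, 0.90 (SE 0.12, adjusted p = 6.14e-05) in fl/+ and 0.74 (SE 0.12, adjusted p = 0.000319) in +/+. Pkm, the pyruvate kinase gene, was at 898, 826 and 1011 CPM in fl/fl, 903, 812 and 971 CPM in fl/+ and 859, 947 and 849 CPM in +/+ effector cells. The resting values of Pkm were 702, 675 and 762 CPM in fl/fl, 680.0, 647 and 702 CPM in fl/+ and 669.7, 679.6 and 677 CPM in +/+. Here too the states did not overlap. The fitted log2 change was 0.35 (SE 0.09, adjusted p = 0.0191) in fl/fl, 0.41 (SE 0.09, adjusted p = 0.00295) in fl/+ and 0.39 (SE 0.09, adjusted p = 0.00413) in +/+. The fl/fl call of Pkm was lost without effector replicate 1 or 3 or resting replicate 2 (adjusted p = 0.0523 to 0.0974) and with only the fl/fl groups in the fit (0.0835).

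Pgk1, phosphoglycerate kinase, was at 221, 246 and 276 CPM in fl/fl, 218, 230.5 and 240.0 CPM in fl/+ and 200.3, 194 and 227 CPM in +/+ effector cells. In resting cells Pgk1 stood at 167, 148 and 172 CPM in fl/fl, 169, 147 and 172 CPM in fl/+ and 181, 186 and 165 CPM in +/+. All 9 effector libraries were above the 9 resting ones. The log2 fold change was 0.60 (SE 0.10, adjusted p = 0.00139) in fl/fl, 0.50 (SE 0.10, adjusted p = 0.00180) in fl/+ and 0.22 (SE 0.10, adjusted p = 0.149) in +/+. On the log2(FPKM + 1) scale the +/+ change of Pgk1 passed as well (0.31, adjusted p = 0.0351). Neither enolase gene was called between states. Eno1, the main enolase, ranged from 471 to 796 CPM in effector and from 586 to 762 CPM in resting cells, with log2 changes of -0.18 in fl/fl, -0.27 in fl/+ and -0.25 in +/+. Eno3, the muscle enolase, ranged from 12.7 to 50.5 CPM in effector and from 23.8 to 70.8 CPM in resting cells, with log2 changes of -0.48 in fl/fl, -0.70 in fl/+ and -0.54 in +/+. Eno3 passed in fl/+ with genotype and number as a replicate block (-0.75, adjusted p = 0.0182) and without fl/+ effector replicate 2 (-1.36, adjusted p = 0.0233). In most other alternatives it did not pass. Gapdh, Pgam1, and Pgk1 in fl/fl and fl/+, kept their calls in every alternative tried.

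**Figure D3:**
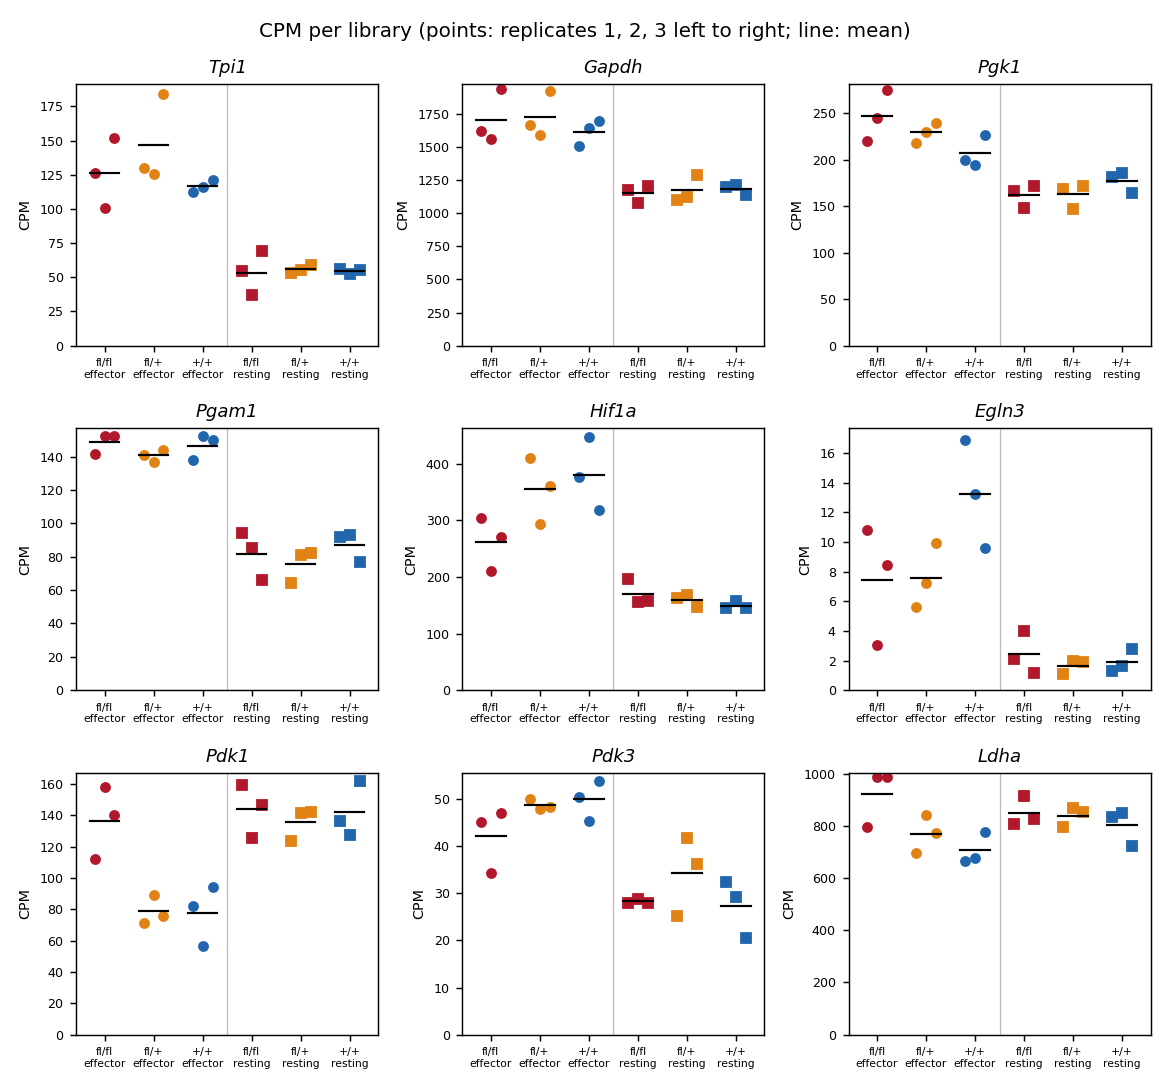
CPM of 9 genes in each library, with replicates 1, 2 and 3 from left to right in each group and a line at the mean; effector groups (circles) are left of resting groups (squares). For Tpi1, Gapdh, Pgk1, Pgam1 and Hif1a all effector points lie above all resting points, and the Pdk1 points of fl/fl effector cells (112 to 158 CPM) overlap those of resting cells (124 to 162 CPM).

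Neither lactate dehydrogenase gene was called between states. Ldha, its main subunit, was at 795, 987 and 985 CPM in fl/fl, 696, 840.2 and 771 CPM in fl/+ and 666, 678 and 777 CPM in +/+ effector cells. Resting values of Ldha were 807, 915 and 825 CPM in fl/fl, 794, 867 and 853 CPM in fl/+ and 834, 848 and 723 CPM in +/+. The states overlapped in every genotype, with log2 changes of 0.12 (SE 0.10, adjusted p = 0.584) in fl/fl, -0.12 (SE 0.10, adjusted p = 0.463) in fl/+ and -0.18 (SE 0.10, adjusted p = 0.251) in +/+. Ldhb, the heart subunit, was at 59.4, 45.6 and 54.4 CPM in fl/fl, 62.2, 63.7 and 73.0 CPM in fl/+ and 46.3, 56.6 and 58.0 CPM in +/+ effector cells. In resting cells Ldhb was at 59.0, 61.0 and 70.5 CPM in fl/fl, 74.7, 59.8 and 75.1 CPM in fl/+ and 52.3, 62.8 and 64.3 CPM in +/+. These overlapped too, with log2 changes of -0.25 in fl/fl, -0.08 in fl/+ and -0.16 in +/+, none called.

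The kinases of pyruvate dehydrogenase moved in opposite directions. Pdk1 was lower in effector cells of fl/+ and +/+, and Pdk3 was higher in them. Pdk1 was at 112, 158 and 140.3 CPM in fl/fl, 71.5, 89.3 and 76.0 CPM in fl/+ and 82.0, 56.6 and 94.2 CPM in +/+ effector cells. Its resting libraries had 159, 126 and 147 CPM in fl/fl, 124, 141 and 142 CPM in fl/+ and 136, 127 and 162 CPM in +/+. The fl/fl effector libraries overlapped the fl/fl resting ones, and those of fl/+ and +/+ lay below theirs. Pdk1 had log2 fold changes of -0.08 (SE 0.16, adjusted p = 0.833) in fl/fl, -0.78 (SE 0.16, adjusted p = 0.00177) in fl/+ and -0.85 (SE 0.16, adjusted p = 0.000984) in +/+. Pdk3 was at 45.1, 34.2 and 47.1 CPM in fl/fl, 50.0, 47.9 and 48.4 CPM in fl/+ and 50.5, 45.5 and 54.0 CPM in +/+ effector cells. For resting cells the Pdk3 values were 28.0, 28.9 and 28.0 CPM in fl/fl, 25.2, 41.7 and 36.2 CPM in fl/+ and 32.5, 29.2 and 20.5 CPM in +/+. Within each genotype the effector libraries were above the resting ones. For Pdk3 the log2 fold change was 0.57 (SE 0.18, adjusted p = 0.0690) in fl/fl, 0.53 (SE 0.17, adjusted p = 0.0416) in fl/+ and 0.86 (SE 0.18, adjusted p = 0.00236) in +/+. In fl/fl Pdk3 passed on the log2(FPKM + 1) scale (0.62, adjusted p = 0.0404) and without fl/fl effector replicate 2 (0.70, adjusted p = 0.0312). In most other alternatives it did not pass there. In fl/+ the Pdk3 call was lost without effector replicate 1, 2 or 3 or resting replicate 1 or 3 (adjusted p = 0.0576 to 0.274).

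Pdha1, which encodes the subunit that the kinases phosphorylate, was at 185, 218 and 232 CPM in fl/fl, 190.3, 194 and 202 CPM in fl/+ and 179, 187 and 200.3 CPM in +/+ effector cells. The resting libraries of Pdha1 held 221, 225 and 242 CPM in fl/fl, 229, 244 and 231 CPM in fl/+ and 262, 248 and 213 CPM in +/+. It was lower in all effector libraries of fl/+ and +/+ than in their resting ones, and the fl/fl groups overlapped. The log2 fold change was -0.12 (SE 0.10, adjusted p = 0.545) in fl/fl, -0.26 (SE 0.10, adjusted p = 0.0675) in fl/+ and -0.35 (SE 0.10, adjusted p = 0.0146) in +/+, so the gene was called in +/+ alone. That call was lost without +/+ effector replicate 1 or 2 or resting replicate 1 or 2 (adjusted p = 0.0580 to 0.0829), with only the 2 groups in the fit (0.0570) and on the log2(FPKM + 1) scale (0.0510). In fl/+ Pdha1 passed with genotype and number as a replicate block (-0.26, adjusted p = 0.0448). Pdhb, the other subunit of that enzyme, had log2 changes of 0.01 in fl/fl, -0.07 in fl/+ and -0.07 in +/+, none called.

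No pentose phosphate gene was called, in any of the 9 pairwise comparisons between states or genotypes. Over these 54 values the log2 change ran from -0.48 for Pgls in fl/fl against +/+ resting cells to 0.37 for Pgls in effector against resting fl/fl cells, and the lowest adjusted p was 0.242. G6pdx was at 39.9, 48.0 and 48.4 CPM in fl/fl, 40.5, 41.7 and 47.9 CPM in fl/+ and 46.5, 35.4 and 40.7 CPM in +/+ effector cells. Resting G6pdx values were 40.0, 39.0 and 52.8 CPM in fl/fl, 45.9, 45.3 and 48.4 CPM in fl/+ and 43.4, 41.3 and 41.9 CPM in +/+. The groups overlapped in every genotype, with log2 changes of 0.03 in fl/fl, -0.10 in fl/+ and -0.03 in +/+. Pgls, the lactonase of the oxidative branch, had log2 changes of 0.37 in fl/fl, 0.01 in fl/+ and -0.13 in +/+. Those of Pgd, its second NADPH-making enzyme, were 0.12 in fl/fl, 0.13 in fl/+ and 0.23 in +/+. In the non-oxidative branch, which returns pentoses to glycolysis, the values were 0.10 in fl/fl, 0.05 in fl/+ and 0.04 in +/+ for Rpe. For Tkt, transketolase, they were 0.21 in fl/fl, 0.15 in fl/+ and 0.00 in +/+, and for Taldo1, transaldolase, -0.08 in fl/fl, -0.16 in fl/+ and -0.07 in +/+. Summed FPKM of the 3 oxidative genes was 146 ± 16.9 in fl/fl, 136 ± 18.2 in fl/+ and 142 ± 11.7 in +/+ effector cells, against 115 ± 4.26, 125 ± 9.77 and 136 ± 12.8 in resting cells of the same genotypes (SD, n = 3 each). In CPM the same sums were 187, 179 and 178 in effector cells, against 165.5, 175 and 175 in resting cells. The fl/fl libraries overlapped in CPM, at 164 to 214 in effector and 155 to 179 in resting cells. Pfkfb3 and Pfkfb4, which set the level of fructose 2,6-bisphosphate, an activator of phosphofructokinase, were not called either. Their log2 changes were 0.13 in fl/fl, -0.14 in fl/+ and 0.04 in +/+ for Pfkfb3 and -0.24 in fl/fl, -0.15 in fl/+ and -0.23 in +/+ for Pfkfb4.

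Among hypoxia genes Hif1a was higher in effector cells of all genotypes and P4ha1 was lower in fl/+ and +/+. Egln3, a regulator of Hif1a, was also called higher in all genotypes. It reached 10 counts in 8 effector libraries and 1 resting library. Egln3 thus passed the count rule only through effector cells, and its tests between states draw on that choice. Hif1a was at 305, 210.0 and 271 CPM in fl/fl, 409.6, 293 and 361 CPM in fl/+ and 376, 448 and 319 CPM in +/+ effector cells. Resting Hif1a values were 196, 156 and 157 CPM in fl/fl, 163, 168 and 146 CPM in fl/+ and 145, 157 and 145 CPM in +/+. All effector libraries were above all resting ones, and the fl/fl effector libraries were below the +/+ ones. The log2 fold change of Hif1a was 0.63 (SE 0.15, adjusted p = 0.0133) in fl/fl, 1.16 (SE 0.15, adjusted p = 3.68e-05) in fl/+ and 1.35 (SE 0.15, adjusted p = 1.18e-05) in +/+. The fl/fl call was lost without fl/fl effector replicate 1 or resting replicate 2 or 3 (adjusted p = 0.0678 to 0.103). Egln3, a prolyl hydroxylase that marks HIF proteins for decay and is itself a HIF target, was at 10.8, 3.02 and 8.46 CPM in fl/fl, 5.63, 7.25 and 9.92 CPM in fl/+ and 16.9, 13.2 and 9.61 CPM in +/+ effector cells. In resting cells Egln3 was at 2.09, 3.97 and 1.18 CPM in fl/fl, 1.08, 1.97 and 1.88 CPM in fl/+ and 1.27, 1.62 and 2.76 CPM in +/+. The groups were apart in fl/+ and +/+ and overlapped in fl/fl, where effector replicate 2 was low. For Egln3 the log2 fold change was 1.67 (SE 0.49, adjusted p = 0.0471) in fl/fl, 2.26 (SE 0.52, adjusted p = 0.00478) in fl/+ and 2.86 (SE 0.50, adjusted p = 0.000500) in +/+. In fl/fl this call was lost with the batch number as a replicate block (adjusted p = 0.0549), with genotype and number as the block (0.0592), and without fl/fl effector replicate 1 or 3 or resting replicate 1 or 3 (0.0986 to 0.375). It was also lost with only the fl/fl groups in the fit (0.146) and on both FPKM scales (0.0528 and 0.0588).

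P4ha1, a collagen prolyl hydroxylase and HIF target, was at 69.2, 87.2 and 80.4 CPM in fl/fl, 83.2, 65.2 and 58.8 CPM in fl/+ and 64.8, 59.2 and 50.6 CPM in +/+ effector cells. P4ha1 in resting cells was at 106, 125 and 104 CPM in fl/fl, 126, 112 and 93.4 CPM in fl/+ and 90.8, 105 and 65.5 CPM in +/+. In each genotype the effector libraries were below the resting ones. P4ha1 had log2 fold changes of -0.51 (SE 0.17, adjusted p = 0.0788) in fl/fl, -0.68 (SE 0.16, adjusted p = 0.00669) in fl/+ and -0.58 (SE 0.17, adjusted p = 0.0253) in +/+. With the batch number as a replicate block the fl/fl change passed (-0.52, adjusted p = 0.0233), as it did with genotype and number as the block (-0.51, adjusted p = 0.00375). The call was lost in fl/+ without effector replicate 3 or resting replicate 1 (adjusted p = 0.0515 and 0.0572) and in +/+ without effector replicate 2 or 3 or resting replicate 1 or 2 (0.0656 to 0.150). In +/+ it was also lost with only the +/+ groups in the fit (0.0547) and on both FPKM scales (0.0772 and 0.0787). Bnip3, a mitophagy receptor and HIF target, had log2 changes of 0.01 in fl/fl, 0.27 in fl/+ and 0.07 in +/+, none called.

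Several steps have more than 1 gene, and the share of each in the summed FPKM of the step was compared between states. The 9 pairs of libraries with the same genotype and batch number were used in an exact two-sided sign-flip permutation test, whose smallest p is 0.00391, with adjustment over 7 shares. Pdk3 held 56.9% of the sum of Pdk1 and Pdk3 in effector and 36.0% in resting cells, 20.9 points more, higher in 8 of 9 pairs (adjusted exact p = 0.0273). The exception was fl/fl number 2, at 36.5% in effector and 37.7% in resting cells. In fl/fl effector cells the Pdk3 share was 51.8, 36.5 and 47.4%, against 65.0, 58.5 and 62.9% in fl/+ and 62.0, 67.9 and 60.4% in +/+ effector cells. Pfkp held 56.3% of phosphofructokinase FPKM in effector and 52.3% in resting cells, 3.95 points more and higher in 9 of 9 pairs (adjusted exact p = 0.0273). Pfkm held 8.56% of it in effector and 12.9% in resting cells, a difference of -4.35 points and lower in 8 of 9 pairs (adjusted exact p = 0.0273).

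Hk2 held 3.80% of the hexokinase pair in effector and 1.41% in resting cells, a difference of 2.39 points and higher in 7 of 9 pairs. Hk2 met the count rule only through effector libraries, so no test of this share is given. The largest Hk2 share was 7.52%, in fl/+ effector replicate 3, so Hk1 remained the main form in every library. Aldoc, which also met the rule through effector libraries and is likewise given with no test, held 0.665% of the aldolase pair in effector and 0.328% in resting cells. The shares of Eno3 (4.86% in effector against 6.20% in resting cells, adjusted exact p = 0.114) and Ldhb (8.60% against 9.07%, adjusted exact p = 0.402) did not pass. Their mean differences were -1.34 and -0.462 points. With 1 pair left out in turn, the adjusted exact p of the 3 shares that passed was 0.0273 to 0.0547, and the smallest p that 8 pairs allow is larger.

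**Figure D4:**
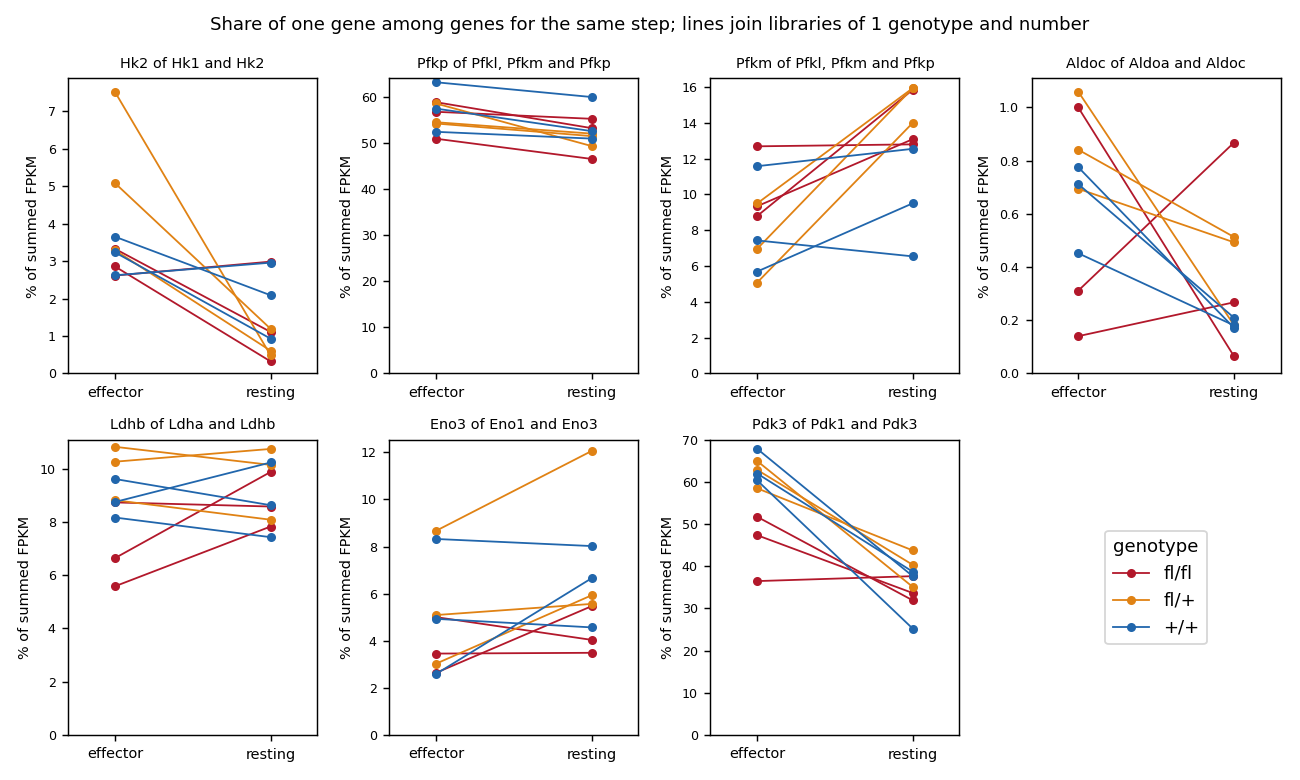
Share of 1 gene in the summed FPKM of the genes for the same step, in percent, for effector (left) and resting (right) libraries; each line joins 2 libraries of 1 genotype and batch number. The Pdk3 lines fall towards resting in all pairs but fl/fl number 2, and all 9 Pfkp lines fall towards resting by a few points.

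The summed level of the 17 genes for glucose to lactate was 3988 ± 403 FPKM in fl/fl, 3858 ± 267 in fl/+ and 3682 ± 157 in +/+ effector cells. In resting cells it was 2966 ± 126, 2937 ± 215 and 2930 ± 69.5 FPKM for the same genotypes (SD, n = 3 each). The mean over resting was 1.34, 1.31 and 1.26 in fl/fl, fl/+ and +/+. Over the 9 pairs the mean log2 ratio was 0.382 (SD 0.0894), or 1.30-fold, and all 9 were positive. No test is given for this sum. Gapdh alone made 39.7% of the sum in effector and 33.7% in resting cells, and without it the means over resting were 1.23, 1.18 and 1.15. The share of Tpi1 was 2.30% in effector and 1.19% in resting cells, and that of Ldha 14.0% and 17.8%. In CPM, which is scaled by TMM and is not per length, the mean log2 ratio was 0.264. The means over resting were then 1.24, 1.21 and 1.16. On the log2(FPKM + 1) scale the median change of all genes was 0.07 in fl/fl, 0.08 in fl/+ and 0.08 in +/+. In the count fit it was -0.01 in each, so FPKM sat higher in effector cells over all genes. The part of scaling in the gap between the units was not tested.

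The question of the genotypes is whether these genes differ between the C1 genotypes within a state. In effector cells 2 of the 33 genes were higher in fl/fl than in +/+ and 0 were lower, where 1.17% of all genes were higher and 1.65% lower. The 2 were Pdk1 and Ldha, which encode a kinase that switches off pyruvate dehydrogenase and the main subunit of lactate dehydrogenase. For Pdk1 the 3 fl/fl libraries (112, 158 and 140.3 CPM) lay above the 3 +/+ ones (82.0, 56.6 and 94.2 CPM), and the log2 difference was 0.79 (SE 0.16, adjusted p = 0.0126), or 1.73-fold. For Ldha the fl/fl libraries (795, 987 and 985 CPM) lay above the +/+ ones (666, 678 and 777 CPM), with a log2 difference of 0.38 (SE 0.10, adjusted p = 0.0475), or 1.30-fold. Against fl/+ effector cells, 1 of the 33 genes was called in fl/fl, where 0.677% of all genes were called in either direction. It was Pdk1, above all 3 fl/+ libraries (71.5, 89.3 and 76.0 CPM), at 0.79 (SE 0.16, adjusted p = 0.0356). The Ldha difference there was 0.26 (SE 0.10, adjusted p = 0.273). Both comparisons use the same fl/fl libraries. In the windows above, Ldha has 5 matches to ACGTG and 2 to GCGTG, and Pdk1 has 0 and 2. Proliferation genes also differed, with 3 of 20 higher in fl/fl than in +/+ effector cells and a median log2 difference of 1.08. Treg markers were lower in 2 of 8 genes (median -0.23, sums of 2688 to 3389 CPM in fl/fl and 3711 to 4258 CPM in +/+). The 6 CD8 T or NK cell genes summed to 48.0, 20.8 and 21.8 CPM in fl/fl replicates 1, 2 and 3 and to 18.5 to 21.1 CPM in +/+, with Ncr1 at 0 in +/+. Only fl/fl replicate 1 was thus well above the +/+ range. The part of these lists in the results was not tested.

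These genotype calls rested on few libraries. Between fl/fl and +/+ effector cells none of the 33 genes was called without +/+ effector replicate 1 or 2 or without fl/fl effector replicate 2 or 3, and 5 were called without fl/fl effector replicate 1, with Eno1 (0.49, adjusted p = 0.0217), Pdhb (0.43, adjusted p = 0.0423) and Hif1a (-0.66, adjusted p = 0.0161) in addition. Those 4 fits called 0.289%, 0.467%, 0.320% and 0.806% of all genes and the last 6.05%, against 2.81% in the full fit. In the fits with no call the adjusted p of Pdk1 was 0.0518 to 0.113 and that of Ldha 0.175 to 0.243. With only the 2 groups in the fit Pdk1 was at 0.0588 and Ldha at 0.123. With the scaling of DESeq2 in edgeR Ldha was at 0.0504 and Hif1a passed at -0.54 (adjusted p = 0.0492), which makes 1 higher and 1 lower. The Pdk1 call against fl/+ was lost without fl/+ effector replicate 1 or 3 or fl/fl effector replicate 2 or 3 (adjusted p = 0.0954 to 0.226), and Eno1 was added without fl/fl effector replicate 1 (0.47, adjusted p = 0.03985). That Pdk1 call was also lost with only the 2 groups in the fit (0.0796) and on both FPKM scales (0.0692 and 0.0927).

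Hif1a, the hypoxia factor, was not called between genotypes but stood close to the threshold. Effector cells had 305, 210.0 and 271 CPM in fl/fl against 376, 448 and 319 CPM in +/+. All 3 fl/fl libraries were below all 3 +/+ libraries. The log2 difference was -0.54 (SE 0.15, adjusted p = 0.0515), just outside the threshold, and with the batch number as a replicate block it passed (-0.54, adjusted p = 0.0233). It also passed without +/+ effector replicate 3 (-0.64, adjusted p = 0.0183) and in DESeq2 (-0.55, adjusted p = 0.0166). It did not pass on either FPKM scale or with only the 2 groups in the fit. Nor did it pass without +/+ effector replicate 1 or 2 or without fl/fl effector replicate 2 or 3. Against fl/+ the difference was -0.44 (SE 0.14, adjusted p = 0.191). Egln3 was at -0.82 (SE 0.41, adjusted p = 0.322) against +/+ and P4ha1 at 0.42 (SE 0.17, adjusted p = 0.198). Glycolytic genes that were called between states and not between genotypes had smaller values here. The fl/fl less +/+ log2 difference was 0.11 for Tpi1, 0.07 for Gapdh, 0.02 for Pgam1, 0.04 for Pkm and 0.25 for Pgk1. Their standard errors were 0.18, 0.10, 0.12, 0.09 and 0.10.

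**Figure D5:**
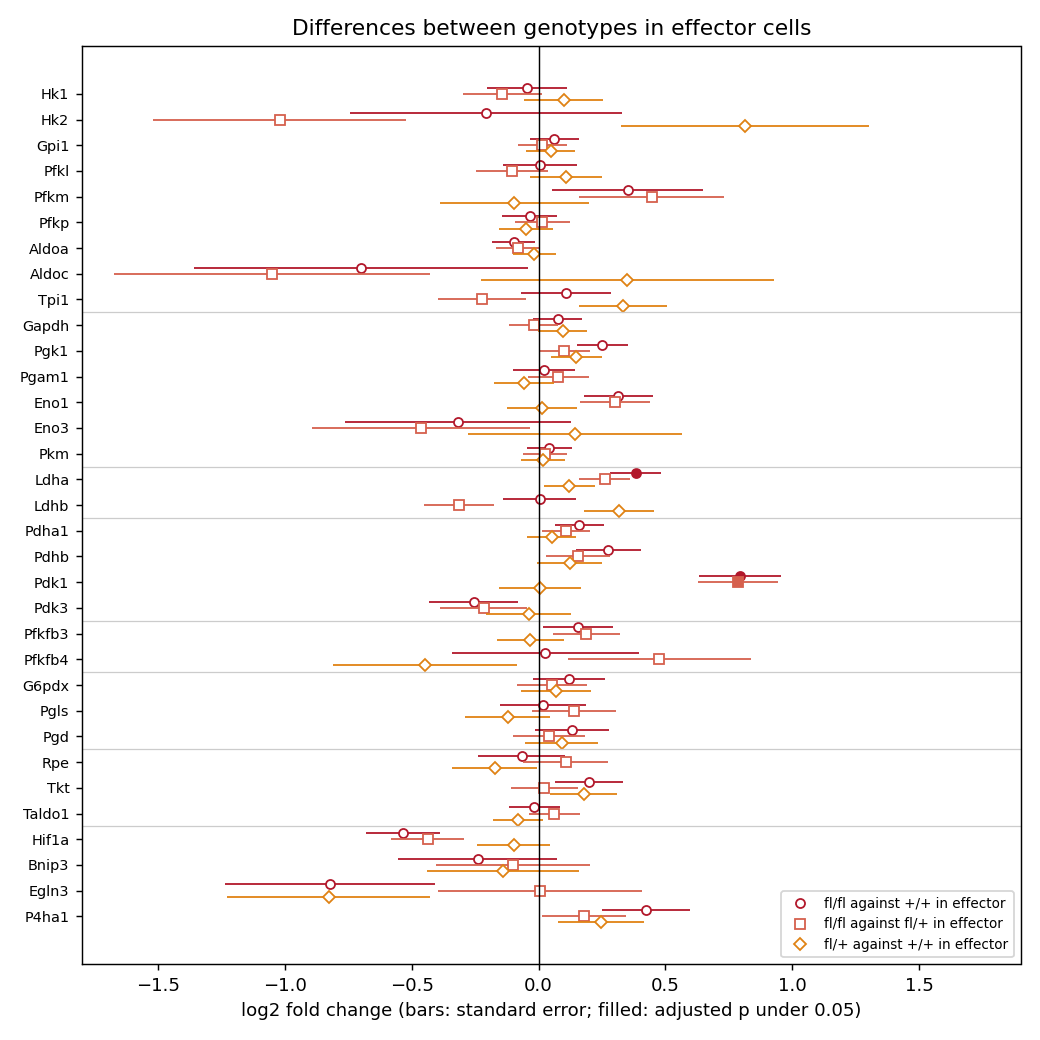
Fitted log2 differences between genotypes in effector cells, with standard errors, for fl/fl against +/+ (circles), fl/fl against fl/+ (squares) and fl/+ against +/+ (diamonds); filled points have an adjusted p under 0.05. Pdk1 is at 0.79 in both fl/fl comparisons and near 0 in fl/+ against +/+, and Ldha is filled in fl/fl against +/+ alone.

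In the other comparisons none of the 33 genes was called by edgeR's quasi-likelihood test, and none by DESeq2. In resting cells fl/fl against +/+ had 0 called and 2 with an unadjusted p under 0.05, where 0.696% of all genes were called. Pgls was the lower of these, at -0.48 (SE 0.17, adjusted p = 0.330), and P4ha1 the higher, at 0.36 (SE 0.17, adjusted p = 0.589). In resting cells fl/fl against fl/+ had 0 called and 0 at an unadjusted p under 0.05 (0.0282% of all genes called). For fl/+ against +/+ the counts were 0 called and 1 at an unadjusted p under 0.05 in effector cells (0.00941%), and 0 and 2 in resting cells (0.0847%). The median size of the log2 difference of the 33 genes was 0.16 for fl/fl against +/+ in effector cells and 0.09 in resting cells, against 0.19 and 0.15 for all genes.

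Whether the change between states itself differs with genotype was tested as an interaction. For fl/fl less +/+ 0 of the 33 genes were called and 4 had an unadjusted p under 0.05, where 0% of all genes were called. The 4 were Pdk1 (0.77, SE 0.22, adjusted p = 0.351), Hif1a (-0.72, SE 0.21, adjusted p = 0.351), Pgk1 (0.38, SE 0.14, adjusted p = 0.458) and Ldha (0.30, SE 0.14, adjusted p = 0.556). With genotype and number as a replicate block, in which each effector library is set against the resting library of its number, Pdk1 (0.78, adjusted p = 0.0431) and Hif1a (-0.72, adjusted p = 0.0234) passed, where 1.13% of all genes were called. For fl/+ less +/+ 0 were called and 2 had an unadjusted p under 0.05, Hk2 (2.03, SE 0.87) and Pfkm (-0.88, SE 0.41), where 0.0188% of all genes were called. Hk2 passed the count rule only through effector cells and held 2 to 4 counts in fl/+ resting libraries. Its value here draws on that choice and on counts near the floor.

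Other genes of these pathways, from lists chosen for this tissue, were examined beside the 33. Of 24 tested sugar and pyruvate genes, 1 was higher in fl/fl effector cells, 1 was higher and 2 lower in fl/+, and 2 were higher and 3 lower in +/+. Of all genes, 5.01% were called higher and 1.33% lower in fl/fl, 9.72% and 6.58% in fl/+, and 9.49% and 6.50% in +/+. The counts of higher genes in this list are at or below that background. Gpd2, the mitochondrial glycerol 3-phosphate dehydrogenase, was lower in effector cells of fl/+ and +/+. Its log2 fold change between states was -0.59 (SE 0.24, adjusted p = 0.173) in fl/fl, -0.90 (SE 0.25, adjusted p = 0.0167) in fl/+ and -1.42 (SE 0.27, adjusted p = 0.000993) in +/+. Between fl/fl and +/+ effector cells Gpd2 differed by 1.33 (SE 0.27, adjusted p = 0.0126), with means of 30.9 CPM in fl/fl and 11.7 CPM in +/+. Me2, mitochondrial malic enzyme, was lower in effector cells of fl/+ (-0.59) and +/+ (-0.81). Pdp1, the phosphatase that opposes the kinases of pyruvate dehydrogenase, was lower in +/+ effector cells (-0.80, SE 0.20, adjusted p = 0.00925). Pcx, pyruvate carboxylase, was higher in them (1.16, SE 0.37, adjusted p = 0.0398). G6pc3, a glucose 6-phosphatase, was higher in effector cells of fl/fl (0.98) and +/+ (0.97), and Pgm2 in those of fl/+ (0.43). Of 10 tested pentose phosphate genes Tktl1, a transketolase relative, was called higher in all 3 genotypes, at means of 2.44 against 0.418 CPM in fl/fl, 2.85 against 0.660 CPM in fl/+ and 3.06 against 0.348 CPM in +/+, effector against resting. As 1 of 10 genes it is near the share of all genes in fl/+ and +/+ (9.72% and 9.49% higher). Its resting means are so low that Tktl1 passed the count filter only through effector libraries, and its tests between states draw on that.

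Of 10 tested carriers of sugar and lactate, the glucose carriers Slc2a6 (5.26 against 0.402 CPM, adjusted p = 0.00722) and Slc2a8 (15.0 against 7.44 CPM, adjusted p = 0.0243) were higher in +/+ effector than in +/+ resting cells, and none was called in fl/fl or fl/+. In +/+ 9.49% of all genes were higher. Slc2a6 was very low in +/+ resting cells, so its test between states may draw on a count filter passed through effector cells. Of 30 other hypoxia genes tested, 1 was higher and 1 lower in fl/fl effector cells, 8 were higher and 1 lower in fl/+, and 5 were higher in +/+, beside the same shares of all genes. In fl/fl the count of higher genes is below that background. Bhlhe40, a repressor induced by hypoxia and by T cell activation, was higher in all 3 genotypes (1.43 in fl/fl, 2.63 in fl/+ and 2.50 in +/+ on the log2 scale). Arnt2, a relative of the partner of Hif1a, was at means of 13.2 against 0.262 CPM in fl/+ and 28.5 against 0.254 CPM in +/+, effector against resting. With resting levels this low, its tests between states carry the same limit as that of Slc2a6. In fl/fl effector cells Arnt2 averaged 4.09 CPM, lower than in +/+ effector cells (adjusted p = 0.0126). Bnip3l, like Bnip3 a mitophagy receptor, was lower in fl/fl effector cells (-0.38, SE 0.11, adjusted p = 0.0435). Hif3a and Nfil3 were higher in fl/+ and +/+ effector cells, Plod2 in +/+, and Fam162a, Narf, Tfrc and Rbpj in fl/+, where Ndrg1 was lower.

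Of 19 tested regulators of sugar metabolism, Irf4, a transcription factor downstream of the antigen receptor, was higher in effector cells of all 3 genotypes (1.40 in fl/fl, 1.28 in fl/+ and 1.53 in +/+). Myc, which drives glycolytic genes in activated T cells, was lower in effector cells of fl/+ (-0.64, SE 0.17, adjusted p = 0.0132) and +/+ (-0.77, SE 0.17, adjusted p = 0.00418) and at -0.08 (SE 0.17, adjusted p = 0.852) in fl/fl. Rictor in fl/+ (-0.43) and Rps6kb1 in +/+ (-0.37), both of the mTOR pathway, were lower as well. With 1 of 19 higher in each genotype and 2 lower in fl/+ and +/+, the list is near or below the shares of all genes that were higher (5.01%, 9.72% and 9.49% in fl/fl, fl/+ and +/+), and near or above those that were lower (6.58% and 6.50% in fl/+ and +/+). Mlxip, a transcription factor that senses glucose 6-phosphate, was higher in fl/fl than in +/+ in effector (1.01, SE 0.27, adjusted p = 0.0493) and in resting cells (1.17, SE 0.26, adjusted p = 0.0424). No regulator was called in fl/fl against fl/+ or in fl/+ against +/+.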

How the data were processed

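Regulatory T cells were profiled by bulk RNA-seq in 18 libraries. The authors deposited RSEM expected counts and FPKM per gene symbol; STAR 2.6.0, RSEM 1.2.8, bcl2fastq 2.17.1.14 and the mm10 build are named in the submitters' processing notes, while the annotation and strand setting are not stated there. The FPKM values were used as deposited by the authors. The expected counts, 29.4% of whose nonzero values are not whole, were rounded. Rn45s, a ribosomal RNA gene, held 10.9 to 16.4% of each total and was kept. CPM are computed from library totals scaled by TMM (factors 0.939 to 1.06).

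The main test was edgeR 4.0.16 (quasi-likelihood, filterByExpr by group, 6 group means, 10630 genes tested, Benjamini-Hochberg threshold 0.05) in R 4.3.3. Alternatives were DESeq2 1.42.0 and its size factors in edgeR, limma 3.58.1 on log2(FPKM + 1) and on log2(FPKM + 0.1), other count filters, totals without Rn45s, counts of near-identical copies added, replicate blocks, fits to fewer groups and leaving out each library. Counts of Gapdh, Gpi1, Pdha1 and Pfkfb3 are not whole in any library. Those of Eno1 and Pfkl are not whole in 17 libraries, Rpe in 16, Pfkp in 13, Ldha in 12, Hif1a in 11 and Pdk1 in 10. Other members have fewer such values or none. RSEM splits reads that match more than 1 place, and the other places were not identified. The levels of these genes carry that uncertainty. The edgeR step was tested on simulated counts, and the sign-flip step on set values with a known p.

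The labels call the replicate number a batch. Deviations from the group means correlated between the states of 1 genotype and number (9 pairs, mean r 0.207, lowest 0.141, highest 0.345), and less between genotypes of 1 number (36 pairs, mean r 0.0666). All listed genes with 10 counts in 3 libraries are named. Genes called in any comparison and 10 chosen genes are given by library. Other genes are named only where called. The targeted gene's own level is not reported here. The members and lists were chosen with earlier results of these data known.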

Additional observations from a re-analysis of the deposited data

Results flagged for a closer look

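In effector against resting cells, 2 genes had a change that differed between fl/fl and +/+ by a test of that difference. The test is the interaction with genotype and number as a replicate block in edgeR's quasi-likelihood test, over all genes. For Pdk1 the change was higher in fl/fl by 0.78 on the log2 scale (adjusted p = 0.0431). For Hif1a it was lower in fl/fl, at -0.72 (adjusted p = 0.0234). With this block 1.13% of all genes were called, against 0% without it. Without the block the values were 0.77 for Pdk1 and -0.72 for Hif1a, and neither passed (adjusted p = 0.351 for both).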

How the results depend on the processing

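Of 37 calls of single genes, 22 held under every alternative run. Over 592 values of these calls under alternatives, 522 kept the call, 70 lost it and 0 changed direction. With only the 2 groups compared in the fit, the number of the 33 genes called was 5 between states in fl/fl (9 in the full fit), 0 in fl/fl against +/+ effector cells (2) and 0 in fl/fl against fl/+ effector cells (1). These fits called 3.52%, 1.54% and 0.0386% of all genes, against 6.34%, 2.81% and 0.677% in the full fit. The count for fl/fl against fl/+ effector cells was 2 with no filter beyond 1 count (2.5% of all genes called). It was 0 with limma on log2(FPKM + 1) (0.31%) and on log2(FPKM + 0.1) (0.132%). The interaction for fl/fl was 0 in the full fit, where 0% of all genes were called. It was 2 with no filter beyond 1 count (1.26% of all genes) and 2 with genotype and number as a replicate block (1.13%). The cause was not tested. Leaving out 1 library gave 4 to 10 genes between states in fl/fl, 0 to 5 in fl/fl against +/+ effector cells and 0 to 2 in fl/fl against fl/+ effector cells. The fits with 4 and 10 called 2.48% and 7.23% of all genes. The fit with 5 called 6.05%, and the fit with 2 called 2.89%. The fits with 0 called at most 0.806% against +/+ and 0.137% against fl/+. Leaving out 1 pair gave differences in share of 1.81 to 2.74 points for Hk2, 3.29 to 4.26 for Pfkp, -5.00 to -3.77 for Pfkm, 19.1 to 23.7 for Pdk3 and 0.262 to 0.448 for Aldoc. The summed glycolytic level was 0.382 (mean log2 ratio) in FPKM, 0.264 in CPM, and 0.358 to 0.398 with 1 pair left out.

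Over all genes, calls between states were 674 in fl/fl, with 266 without fl/fl effector replicate 1, 349 when only its groups were fitted, 1012 with no filter beyond 1 count and 1071 with genotype and number as a replicate block. In fl/fl against +/+ they were 299 in effector cells (31 to 830 over all alternatives, leaving out 1 library included) and 74 in resting cells (6 to 315). In fl/fl against fl/+ they were 72 (3 to 488) and 3 (3 to 94), and in fl/+ against +/+ 1 (0 to 176) and 9 (3 to 219). The interactions had 0 (0 to 246) for fl/fl and 2 (2 to 31) for fl/+. On the log2(FPKM + 1) scale the share of state calls that were higher was 92.5% in fl/fl, 75.5% in fl/+ and 74.3% in +/+, against 79.1%, 59.6% and 59.4% in the count fit. Depth limits Hk2, Aldoc, Pfkfb4 and Egln3, which have under 10 counts in some libraries.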
